A study of Mus musculus with 2 samples.

Results

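The genes described here are 10 genes of the Reelin pathway and of neuronal migration: Reln, Vldlr, Lrp8, Dab1, Cdk5, Cdk5r1, Pafah1b1, Nde1, Ndel1 and Ywhae. They were chosen by name, with no cutoff on a measured value, and all 10 were found by Ensembl gene ID among the 43346 genes of the tables. The samples were midbrains of B6NCrl mouse embryos at embryonic day 15.5, healthy and pooled from both sexes, with no treatment or engineered allele in the labels. Replicate 1 pooled 78 embryos and replicate 2 pooled 62, and each pool gave 1 library of total RNA. For both libraries the input was 10 ng of RNA and the RNA size was above 200 nt. With 1 tissue, 1 age and 2 libraries, the data allow comparisons between genes, between transcripts of a gene and between the pools, but not between conditions. The libraries held 38966386 and 40419493 expected counts.

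Reelin is a large secreted glycoprotein that guides where migrating neurons settle. It binds the lipoprotein receptors Vldlr and Lrp8 (also called Apoer2), and Src family kinases then phosphorylate the adaptor Dab1 bound to the receptor tails. Cdk5, a kinase active only with a partner such as Cdk5r1, acts beside this pathway and phosphorylates Ndel1. Ndel1, its paralog Nde1 and Lis1, the product of Pafah1b1, regulate the motor dynein, which pulls the nucleus forward in a migrating neuron. The 14-3-3 epsilon protein, encoded by Ywhae, binds phosphorylated Ndel1. Mice without Reln, without Dab1 or without both receptors share the reeler malformation, and in the midbrain Reelin is known for the placing of dopamine neurons.

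All 10 genes were expressed, taken as 1 TPM (a share of all transcripts, corrected for transcript length) or more in both libraries, a level reached by 35.4% of all genes. Each also lay above the median of expressed genes, which was 17.0 TPM. In descending order of mean level (± SD, n = 2) they were Ywhae at 1067 ± 43.7 TPM, Dab1 at 102 ± 8.40, Ndel1 at 87.1 ± 1.70, Cdk5r1 at 84.0 ± 1.15, Cdk5 at 71.9 ± 0.212, Lrp8 at 57.6 ± 0.735, Pafah1b1 at 36.7 ± 1.44, Reln at 34.5 ± 6.24, Vldlr at 30.4 ± 1.29 and Nde1 at 20.95 ± 2.32. Neighbours in this order did not overlap between the libraries except Pafah1b1 with Reln and Reln with Vldlr. The median coefficient of variation between the libraries was 4.00% over the 10 genes and 4.69% over all expressed genes. These are bulk values, in which fewer cells of a type and less RNA per cell cannot be told apart. The order also rests on which transcripts are summed. For Lrp8 the protein-coding class leaves out Lrp8-209, the transcript with the longest annotated coding sequence of the gene. When only transcripts annotated as protein coding were summed, an alternative chosen after seeing the data, the mean of Reln was 14.8 TPM and lay below Nde1 at 17.5 TPM, Lrp8 at 30.6 TPM lay below Pafah1b1 at 34.3 TPM, and Dab1 at 60.7 TPM moved from the second place to the fifth, below Ndel1, Cdk5r1 and Cdk5.

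**Figure D1:**
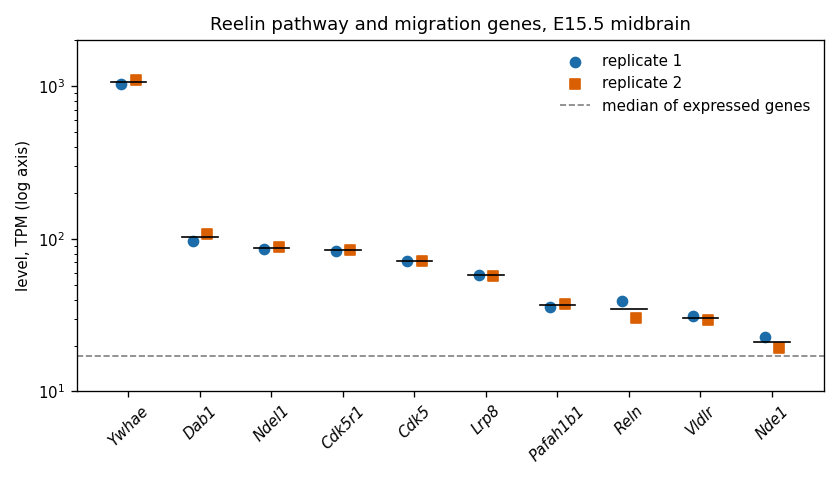
Level of each gene in TPM on a log axis, with a circle for replicate 1, a square for replicate 2, a short bar for their mean and a dashed line at the median of expressed genes, 17.0 TPM. Ywhae stands about an order of magnitude above the other genes, and Reln shows the widest gap between the libraries.

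The tissue label was checked against marker genes. No list of forebrain genes was used, so the check does not cover forebrain tissue. Of 6 midbrain genes 5 were expressed, led by Meis2 (71.68 TPM in replicate 1 and 61.06 in replicate 2), Otx2 (66.35 and 66.1) and Pax3 (11.87 and 9.25), while En2 stood at 1.21 and 0.76. En1 measured 10.29 and 7.6 TPM and Pax7 2.85 and 3.09 TPM. Of 4 Hox genes of hindbrain and spinal cord none was expressed, and Hoxa4 and Hoxb4 had no count. Hoxa5 (22 and 1 counts) and Hoxb5 (24 and 3 counts) were both higher in replicate 1 by the 2-fold comparison of the pools described below. Markers of postmitotic neurons (6 of 6 expressed, 3402.61 and 3412.64 TPM summed) and of radial glia and progenitors (6 of 6, 1267.07 and 1199.71) were present, as were those of blood and vessels, with erythroid genes at 14725.7 and 11486.9 TPM summed. Liver markers summed to 21.23 and 3.03 TPM and epidermis markers to 0.64 and 13.16 TPM, and all 3 of each list passed the same comparison: Afp (7.09 and 0.19), Alb (4.6 and 0.09) and Apoa2 (9.54 and 2.75) as higher in replicate 1, and Krt5 (0.08 and 4.72), Krt14 (0.21 and 5.02) and Krt15 (0.35 and 3.42) as higher in replicate 2.

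The exons in which transcripts of these genes differ are shown first, since the receptor, adaptor and ligand values below turn on them. Each is printed from the GENCODE M21 transcripts (mm10) 5′ to 3′ on the gene's strand, with the alternative exon in capitals and the 24 neighbouring coding bases on each side in lower case. All of those printed are internal to the coding sequence, and all but the exon of Nde1 keep the reading frame.
Reln, 6 nt, chr5:21891562-21891567, minus strand: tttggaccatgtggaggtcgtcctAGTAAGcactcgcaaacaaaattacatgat
Vldlr, 123 nt, chr19:27236240-27236362, plus strand: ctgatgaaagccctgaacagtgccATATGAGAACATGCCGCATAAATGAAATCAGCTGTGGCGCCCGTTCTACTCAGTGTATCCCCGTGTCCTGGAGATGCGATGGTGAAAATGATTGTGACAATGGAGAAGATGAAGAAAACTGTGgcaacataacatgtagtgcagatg
Vldlr, 84 nt, chr19:27246593-27246676, plus strand: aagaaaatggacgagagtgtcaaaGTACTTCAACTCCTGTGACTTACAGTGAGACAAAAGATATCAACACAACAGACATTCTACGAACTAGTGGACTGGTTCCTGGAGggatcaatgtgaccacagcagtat
Lrp8, 123 nt, chr4:107848281-107848403, plus strand: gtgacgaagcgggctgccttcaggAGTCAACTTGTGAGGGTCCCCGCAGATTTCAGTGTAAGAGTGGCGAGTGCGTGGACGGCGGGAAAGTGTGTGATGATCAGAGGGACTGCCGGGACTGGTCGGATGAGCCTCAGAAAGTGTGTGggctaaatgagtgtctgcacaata
Lrp8, 177 nt, chr4:107870012-107870188, plus strand: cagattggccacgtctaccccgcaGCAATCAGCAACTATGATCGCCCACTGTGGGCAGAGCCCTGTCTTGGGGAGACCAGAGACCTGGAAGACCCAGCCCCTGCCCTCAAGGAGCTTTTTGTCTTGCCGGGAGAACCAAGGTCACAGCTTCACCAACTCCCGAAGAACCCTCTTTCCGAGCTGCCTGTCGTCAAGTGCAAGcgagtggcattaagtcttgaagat
Dab1, 39 nt, chr4:104680070-104680108, plus strand: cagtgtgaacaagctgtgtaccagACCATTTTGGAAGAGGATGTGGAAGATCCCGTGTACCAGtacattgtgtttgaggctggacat
Nde1, 149 nt, chr16:14175291-14175439, plus strand: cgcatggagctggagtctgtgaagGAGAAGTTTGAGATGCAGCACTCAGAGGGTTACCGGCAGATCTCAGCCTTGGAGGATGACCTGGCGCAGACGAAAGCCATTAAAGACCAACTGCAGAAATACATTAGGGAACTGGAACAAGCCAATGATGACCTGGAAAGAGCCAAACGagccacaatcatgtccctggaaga

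Reln (chr5:21884454-22344702, minus strand), the ligand gene, measured 38.95 TPM in replicate 1 and 30.13 TPM in replicate 2, from 5071 and 4350 counts. Replicate 1 was the higher library. Of its 12 transcripts, the full-length protein-coding Reln-207 of 65 exons led with 40.6% and 45.05% of the gene's TPM. It took 84.5% and 87.3% of the gene's counts, because TPM weighs a read of a short transcript more than a read of a long one. The processed transcript Reln-205, 891 nt in 3 exons at the 3′ end of the gene, took 38.9% and 38.7% of TPM with 5.53% and 5.12% of counts. The retained-intron transcript Reln-203 took 11.3% and 6%. The full-length Reelin mRNA was thus at 15.82 and 13.57 TPM, and all protein-coding transcripts together made up 43.1 ± 3.11% of the gene's TPM.

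The 6 nt exon of Reln printed above is included in Reln-207 and skipped in Reln-201, which also ends elsewhere. Inclusion is the TPM of transcripts that hold an exon between a given pair of neighbouring exons, as a share of that TPM and the TPM of transcripts that join the same pair directly. It was 99.4% and 99.5%, since Reln-201 was at 0.1 and 0.07 TPM. An antisense gene, Gm10475, shares 246 nt of exon with Reln, and at 0.26 and 0.15 TPM it was far below it; whether the authors' counting used strand is not given in the sources used here.

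Vldlr (chr19:27216484-27254231, plus strand), the receptor that also binds lipoproteins rich in triglyceride, measured 31.36 and 29.53 TPM from 2821 and 2855 counts. Lrp8 (chr4:107802261-107876840, plus strand), the receptor known for its roles at synapses as well as in migration, measured 58.1 and 57.06 TPM from 5948 and 6052 counts. Lrp8 lay above Vldlr in both libraries, by 0.92 ± 0.04 on the log2 scale or 1.89 ± 0.0563 times. The difference was 0.61 over protein-coding transcripts only, a class that leaves out Lrp8-209, which has the longest annotated coding sequence of Lrp8. The coding sequences of the receptors were identical at 63.7% of aligned bases.

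No single transcript of Vldlr made up most of the gene. Vldlr-202 took 29.7% and 32.9% of TPM, Vldlr-201, annotated for nonsense-mediated decay, took 29.8% in both, Vldlr-207 took 19.9% and 20.7%, and the short Vldlr-206 took 12.4% and 7.18%. The leading transcript was thus Vldlr-201 in replicate 1 and Vldlr-202 in replicate 2, and by counts it was Vldlr-207 in both, with 40.7% and 40.6%. The 123 nt exon, which encodes a ligand-binding repeat of the receptor, was included at 60.8% and 59.5%. Vldlr-201 holds this exon and Vldlr-202 skips it, so the value rests in part on how reads were split between them. The 84 nt exon, which encodes the stretch of O-linked sugars beside the membrane, was included at 24.2% and 23.7%, so that most Vldlr TPM came from transcripts without it. It is present in Vldlr-207 and absent from Vldlr-202, Vldlr-201 and Vldlr-208. Vldlr-207 is also longer, at 7971 nt against 3260, 3253 and 3855 nt, and ends further 3′. The value for the 84 nt exon can therefore rest on reads of that end as well as of the exon.

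Lrp8 TPM came mainly from Lrp8-202 (51.6% and 51.8%), a protein-coding model whose first exon lies inside the gene, followed by Lrp8-209 (24% and 23.6%), annotated for nonsense-mediated decay, and the processed transcript Lrp8-212 (17.1% and 20.8%). The 381 nt exon of ligand-binding repeats (chr4:107846239-107846619) was included at 33.5% and 32.9%, or at 27.4% and 25.9% when every transcript that holds or spans it was counted, whatever its neighbours (a definition added after seeing the data). The 123 nt exon of a further such repeat was included at 43.4% and 45.2%. The 177 nt exon printed above encodes the insert of the cytoplasmic tail to which signalling scaffolds bind, and it was included at 32.8% and 32.5%. By contrast the 225 nt exon for the stretch of O-linked sugars (chr4:107861133-107861357) was included at 100%, as the transcript that skips it, Lrp8-206, was listed at 0. By TPM the corresponding stretch was thus in all measured Lrp8 transcripts that span it and in a minority of those of Vldlr. The Vldlr share has the limit given above for Vldlr-207. These Lrp8 values are not independent of one another, since Lrp8-202 lacks all 3 of the partly included exons and Lrp8-209 holds all 3. Lrp8-202 (6627 nt) also starts inside the gene and ends further 3′ than Lrp8-209 (3291 nt). The 3 values can therefore rest on reads of the differing ends as well as of the exons. The 123 nt exon is also held by Lrp8-212, of 797 nt, which had 2.73% and 3.31% of the gene's counts.

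Dab1 (chr4:103619359-104744844, plus strand), the adaptor phosphorylated after Reelin binds, measured 96.38 and 108.26 TPM from 6429 and 7496 counts, and replicate 2 was the higher library. Reln was below Dab1 by 1.58 ± 0.38 on the log2 scale, with 1.31 in replicate 1 and 1.85 in replicate 2. Over protein-coding transcripts only the mean difference was 2.04. Dab1-207, annotated for nonsense-mediated decay, took 37.6% and 37.5% of TPM. The protein-coding Dab1-203, which shares its first exon, took 32.1% and 32.6% of TPM and 58.3% and 58.8% of counts. The shorter coding models Dab1-202 (13.5% and 11.9%) and Dab1-206 (10.4% and 11.6%) made up most of the rest. The first exon of Dab1-203 and Dab1-207 accounted for 69.9 ± 0.262% of the gene.

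The 39 nt exon of Dab1 lies in the part of the protein that holds the phosphorylated tyrosines. Its last 9 bases, GTGTACCAG, are also the last 9 bases of the exon before it. It was included at 46.1% and 46.5%, as Dab1-203 has it and Dab1-207 lacks it between the same neighbours, and at 54.1% and 53.5% whatever the neighbours. Dab1-207 instead contains a 270 nt exon that Dab1-203 lacks, so this value can rest on reads of either exon or of the differing ends. The next exon, of 66 nt, was included at 97.1% and 96.9% where it follows the exon before the 39 nt exon, and at 98.4% and 98.3% whatever the neighbours.

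**Figure D2:**
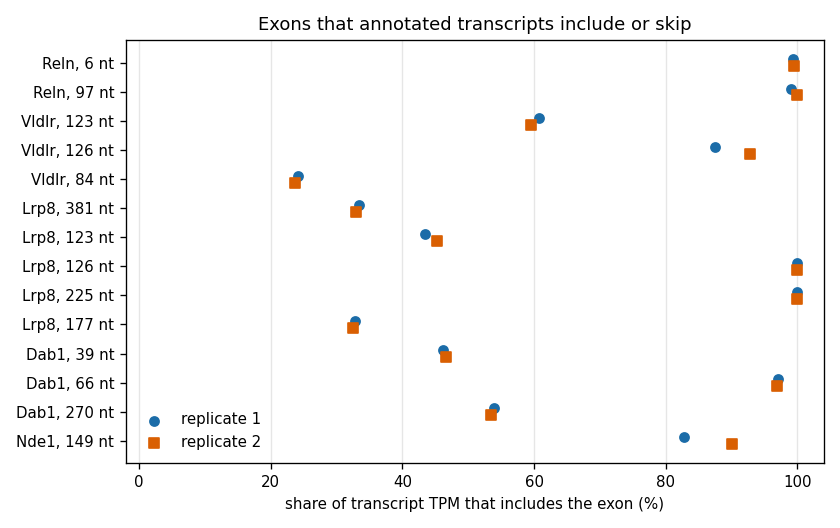
Share of transcript TPM that includes each alternative exon, in percent, for exons inside the coding sequence and the 270 nt exon of Dab1, with a circle for replicate 1 and a square for replicate 2. Partly included exons of Vldlr, Lrp8 and Dab1 lie at nearly the same share in both libraries, while those of Vldlr at 126 nt and of Nde1 at 149 nt lie further apart.

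Cdk5 (chr5:24418241-24423530, minus strand), the kinase, measured 72.04 and 71.74 TPM from 3283 and 3375 counts, all of them on its only transcript. Cdk5r1 (chr11:80477023-80481184, plus strand), its main neuronal activator, measured 83.23 and 84.85 TPM from 7496 and 7725 counts. The activator was above the kinase by 0.23 ± 0.02 on the log2 scale, or 1.17 ± 0.0194 times. Cdk5r2, the second activator gene, was at 7.96 and 7.4 TPM, so that Cdk5r1 exceeded it 10.96 ± 0.714 times. Their coding sequences were identical at 72.7% of aligned bases. The unspliced Cdk5r1-201 took 94.1% and 91.8% of the gene, and Cdk5r1-202 the remainder.

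Pafah1b1 (chr11:74673949-74724670, minus strand), the Lis1 gene whose loss causes lissencephaly in people, measured 35.67 and 37.7 TPM from 4163 and 4314 counts. Besides its role with dynein, Lis1 is a subunit of platelet-activating factor acetylhydrolase. The catalytic subunits of that enzyme were more abundant: Pafah1b3 measured 553.7 and 555.39 TPM and Pafah1b2 186.49 and 190.06 TPM. Pafah1b3 exceeded Pafah1b1 15.1 ± 0.559 times. Pafah1b2 was below Pafah1b3 by 1.56 ± 0.02 on the log2 scale, a difference of 0.97 when counts were divided by the length of the longest transcript. The TPM of Pafah1b1 was spread over transcripts with 3 annotated first exons. That of Pafah1b1-204 rests on few counts, with a posterior SD, a measure of uncertain read assignment, of 30.3% and 23.6% of its own count. Pafah1b1-201 took 56.0% and 55.7%, Pafah1b1-202, which has another first exon and a coding sequence of the same length (1230 nt), took 20.6% and 16.7%, and the short Pafah1b1-204 took 16.8% and 21.1% from 59.5 and 81.88 counts.

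Nde1 (chr16:14163275-14192928, plus strand), known for its role in dividing neural progenitors, measured 22.59 and 19.31 TPM from 1066 and 928 counts. Ndel1 (chr11:68821434-68871858, minus strand), its paralog known for its role in migrating neurons, measured 85.91 and 88.31 TPM from 4425 and 4646 counts. Ndel1 exceeded Nde1 4.19 ± 0.545 times, or by 2.06 ± 0.19 on the log2 scale, and the libraries lay at 1.93 and 2.19. The coding sequences were identical at 65.3% of aligned bases, and the deposited posterior SD of both genes' counts, which measures uncertain read assignment, was 0. Nde1 shares 77 nt of exon with Marf1 on the other strand, which measured 10 and 10.28 TPM.

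Nde1-201 took 70.3% and 68.0% of Nde1. The 149 nt exon printed above was included at 82.8% and 90.1%, and the transcript without it, Nde1-205, is annotated for nonsense-mediated decay. The share of Nde1-205 was 15.7% and 8.85%, with a posterior SD of 43.5% and 40.8% of its own count, so this difference between the libraries lies within the uncertainty of assigning reads. Nde1-202 took 4.45% and 10.1%. Ndel1 was nearly all Ndel1-201, at 89.9% and 87.6%.

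Ywhae (chr11:75732869-75765845, plus strand) measured 1036.49 and 1098.31 TPM from 48304 and 52815 counts, above 99.5% of expressed genes. Ywhae-201 took 99.6% and 99.5% of it. Among the 7 genes of the 14-3-3 family it took 22.1 ± 0.476% of summed TPM, between Ywhaq at 22.7 ± 0.278% and Ywhaz at 21.02 ± 0.113%. The ranges of Ywhae (21.7% and 22.4%) and Ywhaq (22.9% and 22.5%) did not overlap, and their TPM ranges did (1093.23 and 1104.31 for Ywhaq). Ywhag (13.0%), Ywhah (12.8%) and Ywhab (8.29%) followed. Sfn, the epithelial member, was at 0.99 and 2.79 TPM. The coding sequence of Ywhae was identical to those of the other members at 65.2% to 67.7% of aligned bases.

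The share of protein-coding transcripts of a gene's TPM was lower for the ligand, its receptors and the adaptor than for the other genes. Protein-coding transcripts made up 43.1% of Reln TPM, 53.2% of Lrp8, 59.4% of Dab1 and 66.0% of Vldlr. The Lrp8 share was nearly all Lrp8-202, with 2095 nt of annotated coding sequence. It leaves out Lrp8-209, which has 2988 nt, the longest of the gene, and is annotated for nonsense-mediated decay. For the other genes the share was 83.7% for Nde1, 93.5% for Pafah1b1, 98.8% for Ndel1, 99.8% for Ywhae and 100% for Cdk5 and Cdk5r1. The 100% was fixed by the annotation, which gives Cdk5 1 transcript and Cdk5r1 2, all protein coding. Protein-coding transcripts were 2 of the 12 listed for Reln, 5 of 12 for Lrp8 and 5 of 8 each for Dab1 and Vldlr. They were 4 of 8 for Nde1, 3 of 5 for Pafah1b1, 3 of 6 for Ndel1 and 2 of 5 for Ywhae. The share over all expressed genes is not given here. By counts in place of TPM the lower shares were 85.03% and 87.7% for Reln, 78.4% and 78.5% for Lrp8, 67.8% and 67.9% for Dab1 and 70.2% and 71.5% for Vldlr. On that scale Nde1 had 83.6% and 89.5% and Pafah1b1 88.8% and 89.0%, so that Reln was not apart from them by counts. Of the 9 genes with more than 1 transcript, 8 had the same leading transcript in both libraries, beside 91.7% of all expressed genes with more than 1 transcript. Vldlr was the exception, with its first 2 transcripts nearly tied in replicate 1. By the sum of both libraries the leading transcript was annotated as other than protein coding in 1 of the 9, Dab1, beside 9.77% of such protein-coding genes.

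**Figure D3:**
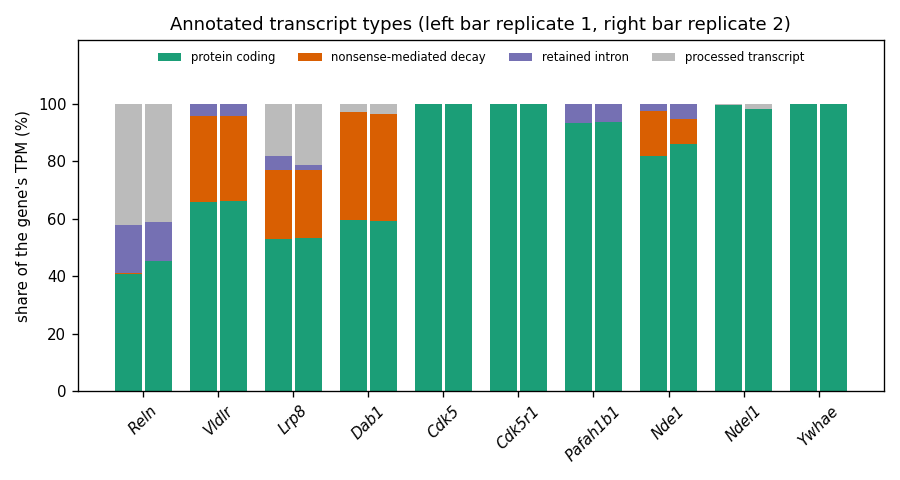
Share of each gene's TPM by the annotated type of its transcripts, in percent, as stacked bars with replicate 1 on the left and replicate 2 on the right. Reln, Vldlr, Lrp8 and Dab1 have protein-coding shares of 40.9% to 66.0%, and the other genes reach 81.7% or more in both libraries. Cdk5 and Cdk5r1 have no annotated transcript of another type, so their share is fixed.

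The pools were compared gene by gene with an exact binomial test of counts over the 18269 genes that averaged 10 or more counts. Its p-values compare these 2 libraries and cover counting error only. Which genes pass without a fold threshold also depends on how library sizes are set. In edgeR's exact test, given last, the common dispersion was estimated from the same 2 libraries treated as 1 group. The difference under test is thus part of that dispersion, and a gene that does not pass is not shown to be alike in the pools. When a call needed both a 2-fold difference and an adjusted p below 0.05, 1.63% of genes passed, 164 of them higher in replicate 1 and 134 higher in replicate 2. None of the 10 genes passed. With no fold threshold 19.3% of genes passed, and 4 of the 10 did. Reln and Nde1 were higher in replicate 1, as were 9.96% of genes, and Dab1 and Ywhae were higher in replicate 2, as were 9.38%. Under edgeR's exact test with the common dispersion, a biological coefficient of variation of 6.50%, and with no fold threshold, 1.29% of genes passed and none of the 10 did; the unadjusted p of that test was 0.05 for Reln, 0.099 for Nde1, 0.19 for Dab1 and 0.53 for Ywhae.

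Reln was 1.203-fold higher in replicate 1 (95% counting interval 1.15 to 1.25, adjusted p = 4.8e-17 by the exact binomial test). Of 3517 genes of similar count, 98.9% differed less between the libraries. Nde1 was 1.19-fold higher in replicate 1 (1.08 to 1.30, adjusted p = 0.0018 by the same exact test), and 92.6% of 5179 genes of similar count differed less. Dab1 was 1.13-fold higher in replicate 2 (1.09 to 1.17, adjusted p = 4.2e-11 by the exact test), with 95.7% of 2416 genes differing less. Ywhae was 1.06-fold higher in replicate 2 (1.05 to 1.07, adjusted p = 5.8e-18 by the exact test), a direction that flipped to a log2 ratio of -0.0027 when spike-in totals set the library sizes. The other 6 genes had log2 ratios between -0.028 for Vldlr and 0.025 for Ndel1, with counting intervals that reached no further than -0.10 and 0.085.

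**Figure D4:**
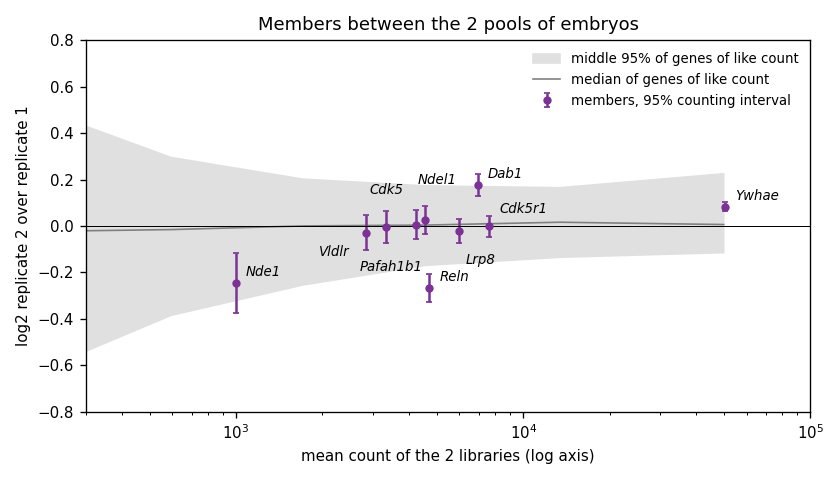
Log2 ratio of replicate 2 over replicate 1 against the mean count on a log axis, with 95% counting intervals for the 10 genes, over the median (grey line) and middle 95% (grey band) of all tested genes in bins of count. Reln lies below the band and Dab1 at its upper edge, while the other 8 genes lie within it.

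Markers moved between the pools as well, and their part in these differences was not tested. Of 8 markers of Cajal-Retzius and other Reln-expressing neurons, 5 passed without a fold threshold as higher in replicate 2 and none as higher in replicate 1, the opposite direction to Reln; they summed to 300.13 TPM in replicate 1 and to 319.15 TPM in replicate 2. The list was led by Calb2 (117.66 and 124.53 TPM), Slc17a6 (83.67 and 82.88) and Lhx5 (31.09 and 34.7), and Trp73, which marks Cajal-Retzius cells, was at 0.95 and 1.24 TPM. Of 6 markers of dividing cells 4 were higher in replicate 1, the direction of Nde1, with 204.82 and 182.93 TPM summed. The cyclin gene Ccnb1 among them (36.53 and 25.17 TPM) also passed edgeR's test. Of 6 radial glia and progenitor markers 3 were higher in replicate 1, among them Hes5 (122.33 and 94.66 TPM), and none in replicate 2. Of 6 markers of postmitotic neurons 4 were higher in replicate 2, the direction of Dab1 and Ywhae, among them Dcx (221.98 and 250.37 TPM), and 1, Tubb3, was higher in replicate 1 (1782.49 and 1730.74 TPM). Other lists moved in the direction of Reln and Nde1. Higher in replicate 1 without a fold threshold were 4 of 6 midbrain identity genes (164.25 and 147.86 TPM summed), 4 of 4 microglia markers (113.68 and 88.18), 4 of 4 erythroid genes, 3 of 4 markers of meninges and fibroblasts (310.7 and 272.57), and 1 of 4 markers each of endothelium (229.63 and 203.51) and mural cells (193.29 and 150.53), and none of these lists had a gene higher in replicate 2. Of 3 choroid plexus markers 1 was higher in replicate 2 (245.38 and 278.29 TPM summed), and of 4 oligodendrocyte lineage markers none passed (86.97 and 84.2).

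Around the 10 genes, lists of partners were described in the same units. In all of them the count of genes that passed refers to 2-fold unless stated. Without a fold threshold, 9.96% of all genes tested passed as higher in replicate 1 and 9.38% as higher in replicate 2. A gene with more counts passes at a smaller difference, so these shares are not a like measure for lists of abundant genes. Of 13 genes for Reelin, its proteases and other ligands of its receptors 12 were expressed, with a median level of 4.93 ± 0.438 TPM. The list was led by Apoe (416.8 and 310.15 TPM), the lipid carrier that binds both receptors, Selenop (111.67 and 91.82), a selenium carrier taken up through Lrp8, and Clu (83.15 and 76.89). The Adamts family of proteases, some of which cleave Reelin, was low, with Adamts4 at 5.77 and 5.81 TPM, Adamts3 at 2.58 and 2.56 and Adamts14, the member not expressed, at 0.29 and 0.34; Plat, the tissue plasminogen activator gene, was at 82.26 and 73.3. None passed at 2-fold, and with no fold threshold 6 of 13 were higher in replicate 1, Reln and Apoe among them, and none in replicate 2.

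All 29 genes of Dab1 kinases, adaptors and effectors were expressed, with a median level of 48.3 ± 2.11 TPM. The highest were the actin-severing protein gene Cfl1 (2432.5 and 2412.82 TPM) and the microtubule protein genes Mapt (829.39 and 889.42) and Map1b (623.89 and 662.58). Fyn, a main kinase of Dab1, measured 58.34 and 57.33 TPM, and Src 35.5 and 32.85. The adaptors that bind phosphorylated Dab1 were Crk at 96.77 and 95.08 TPM and Crkl at 49.82 and 46.83. None of the 29 passed at 2-fold, and without a fold threshold 8 were higher in replicate 1 and 5 in replicate 2. All 10 genes for turnover of Dab1 and its receptors were expressed, with a median level of 18.2 ± 0.0389 TPM, led by Rnf7 (161.57 and 163.97), a subunit of the ubiquitin ligase that degrades Dab1, Socs2 (106.25 and 105.32) and Snx17 (102.62 and 103.11). The scaffold of that ligase, Cul5, measured 33.71 and 37.51 TPM. None of these passed at 2-fold.

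Of 14 genes of the LDL receptor family 12 were expressed, with a median level of 18.4 ± 0.0424 TPM. Lrp1 led (96.44 and 94.21 TPM), then Lrp8 and Lrp11 (36.43 and 33.72), with Vldlr the fourth. Lrp2 (1.01 and 0.93) and Lrp5 (0.94 and 1.12) missed the level in 1 library each. No family member passed at 2-fold.

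All 17 genes for Cdk5 partners and regulators were expressed, with a median level of 17.8 ± 0.262 TPM. The highest were Gstp1 (453.38 and 445.87 TPM), which encodes a protein that binds Cdk5, Cdk5r1 and Cdk5rap3 (72.07 and 74.23). Ppp1r1b, the gene of a neuronal phosphoprotein that Cdk5 phosphorylates, was the 1 that passed, at 3.3 and 1.62 TPM (2.33-fold higher in replicate 1, adjusted p = 3.7e-06 by the exact binomial test, from 118 and 52 counts). All 18 Cdk5 substrates were expressed, with a median level of 51.9 ± 1.92 TPM, led by the microtubule regulators Stmn1 (6161.78 and 6249.15), Dpysl2 (1119.23 and 1128.08) and Map1b. None passed at 2-fold; without a fold threshold 7 were higher in replicate 2, including Dcx, and none in replicate 1.

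All 35 dynein, dynactin and Lis1 partner genes were expressed, with a median level of 96.4 ± 3.34 TPM. The light chain genes Dynll1 (963.64 and 882.5), Dynlt1b (803.64 and 821.9) and Dynlrb1 (600.91 and 568.74) were highest, and Dynlt1b has near-identical copies between which reads may be split. The heavy chain gene Dync1h1 measured 88.78 and 76.32 TPM and the dynactin gene Dctn1 133.16 and 131.12 TPM, both above Pafah1b1. None of the 35 passed at 2-fold, and without a fold threshold 4 were higher in replicate 1 and 6 in replicate 2. In the 14-3-3 family Sfn passed, 2.80-fold higher in replicate 2 (adjusted p = 5.9e-07 by the exact binomial test, from 35 and 102 counts), in the same direction as the epidermis markers. Without a fold threshold 5 of the 7 family members were higher in replicate 2 and none in replicate 1.

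All 34 other neuronal migration genes were expressed, with a median level of 62.9 ± 5.86 TPM, led by the tubulin genes Tuba1a (16128.3 and 15913.7), Tubb3 and Tubb2b (1094.42 and 1083.07). Robo3, a receptor gene of axons that cross the midline, was the 1 that passed, at 8.29 and 3.98 TPM (2.04-fold higher in replicate 1, adjusted p = 1e-28 by the exact binomial test, from 748 and 378 counts). Across the lists, 3 genes passed at 2-fold, Ppp1r1b, Robo3 and Sfn, and the same 3 passed edgeR's exact test with no fold threshold. Over all genes tested 1.63% passed at 2-fold, and 0.452% did among those with a mean of 50 or more counts. Whether the lists differ from these shares was not tested.

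**Figure D5:**
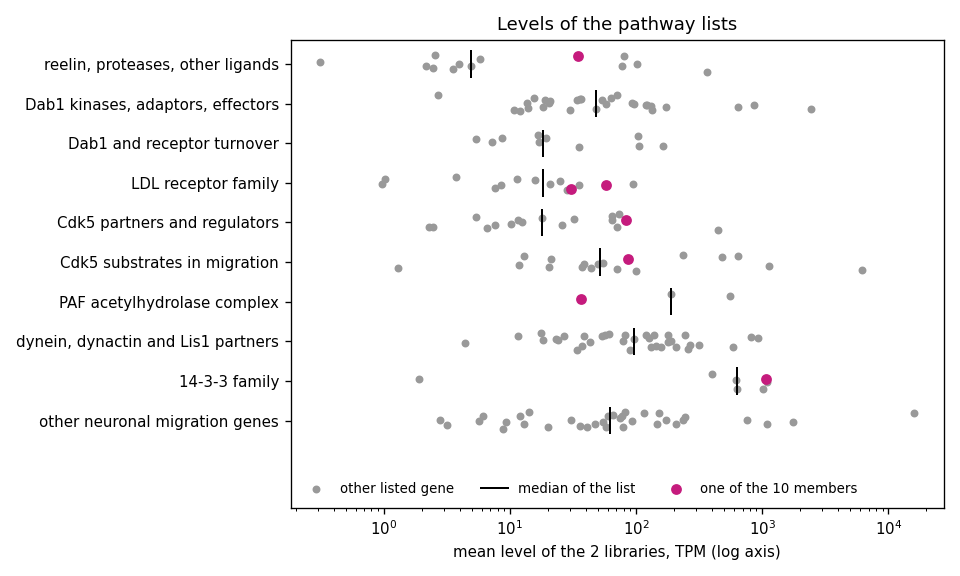
Mean level of each listed gene in TPM on a log axis, 1 row per list, with the 7 of the 10 genes that belong to a list in colour, other genes in grey and a vertical bar at the median of the list. Reln, Lrp8, Vldlr, Cdk5r1, Ndel1 and Ywhae lie above the medians of their lists, and Pafah1b1 lies below the other subunits of its enzyme.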

How the data were processed

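Per the file headers, the authors' gene and transcript tables hold expected counts (estimated counts of reads per feature), TPM, and posterior means and SDs of counts, used here as a signal of uncertain read assignment, and the deposited transcript tables give each transcript's percent of its gene. The posterior mean count is a deposited signal with no further scaling. The authors' notes name mm10 and GENCODE M4. No aligner or counter is named in the sources used here. Spike-in rows (2.30% and 2.42% of counts) and rows without an Ensembl gene ID stayed out of tests and library sizes, and 0 columns were left unmapped.

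Transcript names, types and structures came from GENCODE M21 on the same build and were used for exons only where the length equalled the deposited one (66 of 67 transcripts). Levels are means ± SD of the 2 pools, which the labels call biological replicates. The pools were compared on counts rounded to whole numbers by a two-sided exact binomial test with TMM library sizes (edgeR 4.0.16, R 4.3.3) and Benjamini-Hochberg adjustment over all 18269 genes tested; a log2 ratio added 0.5 to each count. PCR copies of a molecule cannot be separated in these values, so intervals (95%) cover counting error only. Alternatives used DESeq2 1.42.0 size factors, spike-in totals, other filters and edgeR's exact test. The test was tested on simulated data with counting error only, so that check does not cover other variation between real libraries. Other steps used Python 3.11.15.

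The 10 genes, the lists and the tests were chosen with earlier results of these data known. The text names all 10 genes, of each pathway list the 3 highest, any gene that passed at 2-fold and any not expressed (marker lists, to which the rule also applied, are mostly given as counts and sums, with their genes that passed), the paralogs compared, and transcripts taking 10% or more of a gene; a few further partners were named after their values were seen, for their known role.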

Additional observations from a re-analysis of the deposited data

How the results depend on the processing

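No paired analysis was possible because the study has 1 group, so replicate numbers pair no samples. The count of genes that differed between the pools was 298. It was 67 with a mean of 50 or more counts, 527 at 1.5-fold, 3534 with no fold threshold and 158 with edgeR's exact test at 2-fold, settings that differ in how many genes are tested or pass. With spike-in totals as library sizes, which moved the median log2 ratio of all genes to -0.087, it was 349, with 222 higher in replicate 1 against 164. None of the 10 genes passed in any setting but the binomial test with no fold threshold, where 4 did; edgeR's test with no fold threshold, added after seeing the data, passed 236 genes. Spike-in sizes reversed the log2 ratio of Pafah1b1 (-0.080), Ndel1 (-0.061) and Ywhae (-0.0027). They also moved those of Vldlr to -0.114, Lrp8 to -0.106, Cdk5 to -0.092 and Cdk5r1 to -0.088, while Dab1 stayed positive at 0.090. Which of the 10 genes pass without a fold threshold therefore depends on how library sizes are set.

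No difference between paired genes changed sign in 39 alternative values. With counts over the longest transcript, differences were 1.35 for Lrp8 over Vldlr, -0.97 for Pafah1b2 over Pafah1b3, 0.17 for Cdk5r1 over Cdk5 and 4.11 for Pafah1b3 over Pafah1b1. With log2(TPM + 1) that of Cdk5r1 over Cdk5r2 was 3.29. Over protein-coding transcripts, also added after seeing the data, they were 0.61 for Lrp8 over Vldlr, 2.30 for Ndel1 over Nde1 and -2.04 for Reln over Dab1; the cause was not tested. Nde1 had the fewest counts, which limits its transcript shares.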
